A study of Mus musculus with 2 samples.

Results

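Tendon and cartilage matrix genes were examined in gastrocnemius muscle, the main calf muscle, which ends in the Achilles tendon. The set consisted of 10 genes, Prg4, Chad, Angptl7, Comp, Fmod, Tnmd, Thbs4, Kera, Lum and Dcn, among 19936 named nuclear genes. They were taken as the probe sets whose annotated gene symbol matched a fixed list of tendon, cartilage and small leucine-rich proteoglycan genes, and all 10 were found, each with 1 probe set. The set was chosen by the log2 differences between these same 2 arrays together with the known roles of the genes, so that the direction and size of its members' differences are descriptions, not independent evidence.

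The experiment had 2 arrays. RNA of 3 PGC-1β(i)skm-/- mice was pooled for 1 array, and RNA of 3 control mice for the other. The mutants carried loxP-flanked PGC-1β alleles and the HSA-Cre-ERT2 transgene, in which regulatory elements of human skeletal actin drive a tamoxifen-dependent recombinase in myofibres. Control mice, whose sample is labelled wild-type, carried the same floxed alleles without the transgene, per the methods of the study. Mice of both genotypes were C57BL/6 males, given tamoxifen from the age of 7 weeks in 5 daily injections of 1 mg and analysed when 8 weeks old. Since only mutants have the transgene, the effect of the transgene itself and that of the deletion cannot be told apart. Values are log2 signals from robust multi-array averaging (RMA), and a ratio is the linear PGC-1β(i)skm-/- signal over the linear control signal. With 1 array per genotype there is no error between mice and no test, and precision is limited by the small number of arrays.

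The targeted gene Ppargc1b had a log2 signal of 7.06 on the PGC-1β(i)skm-/- array and 7.87 on the control array, over probes that are not limited to the deleted exon. The median log2 signal of 35556 probe sets was 6.02 on the PGC-1β(i)skm-/- array and 6.00 on the control array. All 12 myofibre markers had mean log2 signals between 10.6 and 13.9, and their median log2 difference was 0.01. Myh1 had the largest difference of them, at −0.16. The median log2 difference over all 19936 genes was −0.00055, with a standard deviation over genes of 0.12, which measures how genes spread and not how mice do.

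Tendon is made by tenocytes, fibroblast-like cells that lay down parallel collagen fibrils and organize them with non-collagenous matrix proteins. Small leucine-rich proteoglycans bind collagen through a curved array of leucine-rich repeats and set the diameter and spacing of fibrils. Thrombospondins of the group that includes Comp and Thbs4 link collagens and other matrix proteins, and lubricin, the product of Prg4, reduces friction at joint and tendon surfaces. Skeletal muscle holds little of this tissue outside its tendons, aponeuroses and fascia, whereas decorin and lumican are made by fibroblasts of most connective tissues. In whole muscle, more cells of a type and more RNA per cell cannot be told apart.

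Promoter sequence was at hand for 6 of the 10 genes (Chad, Angptl7, Fmod, Tnmd, Thbs4 and Kera), from RefSeq with build GRCm38.p6. The stretches of Chad and Angptl7 are shown because these genes had the largest differences of the 6, and that of Tnmd because it is the most tenocyte-restricted of them. Each is the 250 bases before the annotated start of transcription, 5′ to 3′ on the strand of the gene, and capitals mark E-boxes (CANNTG on either strand), the motif bound by basic helix-loop-helix factors such as scleraxis. Chad lies at chr11:94564797-94565046 on the plus strand, Angptl7 at chr4:148500463-148500712 on the minus strand and Tnmd at chrX:133850758-133851007 on the plus strand.
Chad: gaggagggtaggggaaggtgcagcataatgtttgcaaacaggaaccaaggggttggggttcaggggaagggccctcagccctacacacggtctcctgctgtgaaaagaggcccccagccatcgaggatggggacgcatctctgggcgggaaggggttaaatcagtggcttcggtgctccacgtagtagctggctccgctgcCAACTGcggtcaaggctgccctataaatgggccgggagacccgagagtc
Angptl7: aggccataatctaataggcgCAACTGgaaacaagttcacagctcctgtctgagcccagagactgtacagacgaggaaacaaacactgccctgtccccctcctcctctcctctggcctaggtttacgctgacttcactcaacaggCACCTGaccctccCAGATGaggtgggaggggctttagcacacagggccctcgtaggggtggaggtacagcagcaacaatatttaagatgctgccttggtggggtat
Tnmd: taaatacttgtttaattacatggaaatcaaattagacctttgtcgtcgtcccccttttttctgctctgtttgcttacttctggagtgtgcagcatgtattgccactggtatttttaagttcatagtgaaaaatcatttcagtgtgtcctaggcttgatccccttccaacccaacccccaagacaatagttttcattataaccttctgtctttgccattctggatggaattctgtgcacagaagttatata
An E-box was found in 4 of the 6 promoters (Chad, Angptl7, Fmod and Thbs4), and in 66.2% of 32851 RefSeq mouse promoters of the same length. Chad had 1, Angptl7 3, and Tnmd and Kera none. The TATA box (TATAAA on either strand) was found in Chad only, at 28 bases before the start, and in 12.4% of all promoters. A SOX core (AACAAT on either strand), of the kind bound by chondrocyte SOX factors, occurred in Angptl7 and Kera and in 9.42% of all promoters, and a SMAD element (CAGAC on either strand) in 3 of the 6 and in 42.2% of all. The core element of oestrogen-related receptors, partners of PGC-1β (AAGGTCA on either strand), was in none of the 6 and in 4.08% of all promoters. Matches that overlap those of another motif were counted for both. GC content of the 6 stretches ranged from 38.4% in Tnmd to 70.8% in Thbs4, around a median of 52.4% for all promoters, so that the 6 had no common base composition.

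Each of the 10 genes was higher in PGC-1β(i)skm-/- muscle than in control muscle. The median log2 difference was 0.30, a ratio of 1.23, and the range was 0.14 to 0.60. A ratio of 1.2 or more, the threshold for higher expression in the methods of the study, was reached by 8 of the 10 genes, and by 1.64% of all named genes. None of the 10 had a ratio of 0.8 or less, which 0.652% of all genes had. Of all genes, 49.6% had a log2 difference above 0. Since the members were chosen with these differences in view, these counts are not read against the background as a finding.

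**Figure D1:**
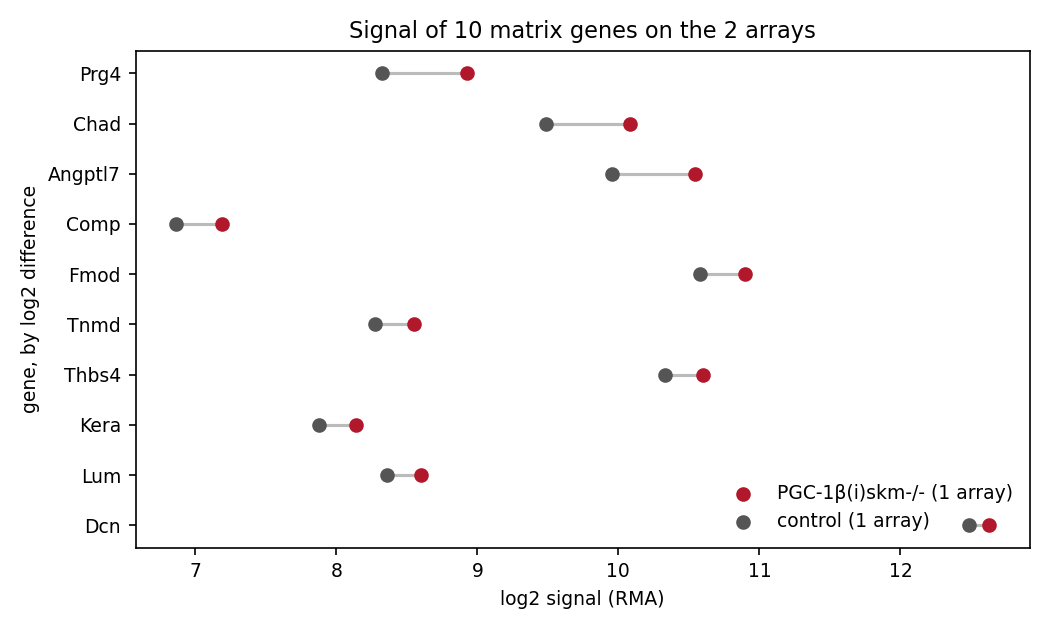
Log2 signal (horizontal axis) of each of the 10 matrix genes (vertical axis, ordered by difference) on the PGC-1β(i)skm-/- array (red) and the control array (grey), 1 array per genotype with 3 mice pooled on each. The red point lies to the right of the grey point for every gene, by 0.60 for Prg4 and by 0.14 for Dcn.

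The largest differences were those of 3 secreted proteins of joint, cartilage and eye tissues. Prg4, encoding lubricin, had a log2 signal of 8.93 in PGC-1β(i)skm-/- muscle and 8.32 in control muscle, a ratio of 1.52. Chad, encoding chondroadherin, a leucine-rich repeat protein that binds collagen and an integrin of chondrocytes, had a log2 signal of 10.08 in PGC-1β(i)skm-/- muscle and 9.48 in control muscle, also a ratio of 1.52. Angptl7, an angiopoietin-like protein known from cornea and the outflow tissue of the eye, had a log2 signal of 10.55 in PGC-1β(i)skm-/- muscle and 9.96 in control muscle, a ratio of 1.504. These 3 had ranks 2, 3 and 4 by log2 difference among the 19936 genes. In the quartile of genes with the highest mean signal, which holds all 3, they had ranks 1, 2 and 3 of 4984. A ratio of 1.5 or more was found for 0.0201% of all genes, that is for 4 genes, these 3 among them. As the 3 were chosen in part by their differences, the ranks and the share are descriptions only.

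Of the other tendon glycoproteins, Comp was next in order, 0.27 below Angptl7 in log2 difference. Comp, the cartilage oligomeric matrix protein, a thrombospondin of cartilage and tendon, had a log2 signal of 7.19 on the PGC-1β(i)skm-/- array and 6.87 on the control array, a ratio of 1.25. Its mean log2 signal was 7.03. Thbs4, a related thrombospondin of tendon and the muscle-tendon junction, had 10.60 on the PGC-1β(i)skm-/- array and 10.33 on the control array, a ratio of 1.21. Tnmd, encoding tenomodulin, a membrane glycoprotein that marks mature tenocytes, had 8.55 on the PGC-1β(i)skm-/- array and 8.27 on the control array, likewise a ratio of 1.21. All 3 were past 1.2, Thbs4 and Tnmd by a narrow margin.

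The small leucine-rich proteoglycans other than Chad had places 5 and 8 to 10 in the order of the 10 genes, Fmod standing between Comp and Tnmd. Fmod, encoding fibromodulin, which binds collagen and guides fibril assembly in tendon, had a log2 signal of 10.89 in PGC-1β(i)skm-/- muscle and 10.58 in control muscle, a ratio of 1.25. Kera, encoding keratocan, a keratan sulphate proteoglycan of cornea that tendon also expresses, had 8.14 in PGC-1β(i)skm-/- muscle and 7.88 in control muscle. Its ratio of 1.202 was the closest to the threshold among the genes that passed it. Lum, encoding lumican, had 8.60 in PGC-1β(i)skm-/- muscle and 8.36 in control muscle, a ratio of 1.18. Dcn, encoding decorin, had 12.63 in PGC-1β(i)skm-/- muscle and 12.48 in control muscle, and its ratio of 1.11 was the smallest of the 10. Lum and Dcn, the widely expressed proteoglycans of the set, were thus the only genes of the 10 under a ratio of 1.2.

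Among the 10 genes, 8 belonged to the quartile of highest mean signal and 2, Comp and Kera, to the third quartile. Signals of bright genes differed less between the arrays. The standard deviation of the log2 difference was 0.099 over the 4984 genes of the highest quartile and 0.12 over those of the third, and a ratio of 1.2 or more occurred in 0.582% of genes in the highest quartile and in 1.63% in the third. Within the highest quartile, Fmod had rank 11, Tnmd 23, Thbs4 27, Lum 38 and Dcn 181 by log2 difference, and within the third quartile Comp had rank 36 and Kera 77. Over all genes, 9 of the 10 were among the 500 largest increases, and Dcn was at rank 1927. These ranks largely restate the choice of the members by their differences and are descriptions only. The correlation of log2 difference with mean signal over the 10 genes was −0.13, as a description of 10 genes measured on the same 2 arrays.

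**Figure D2:**
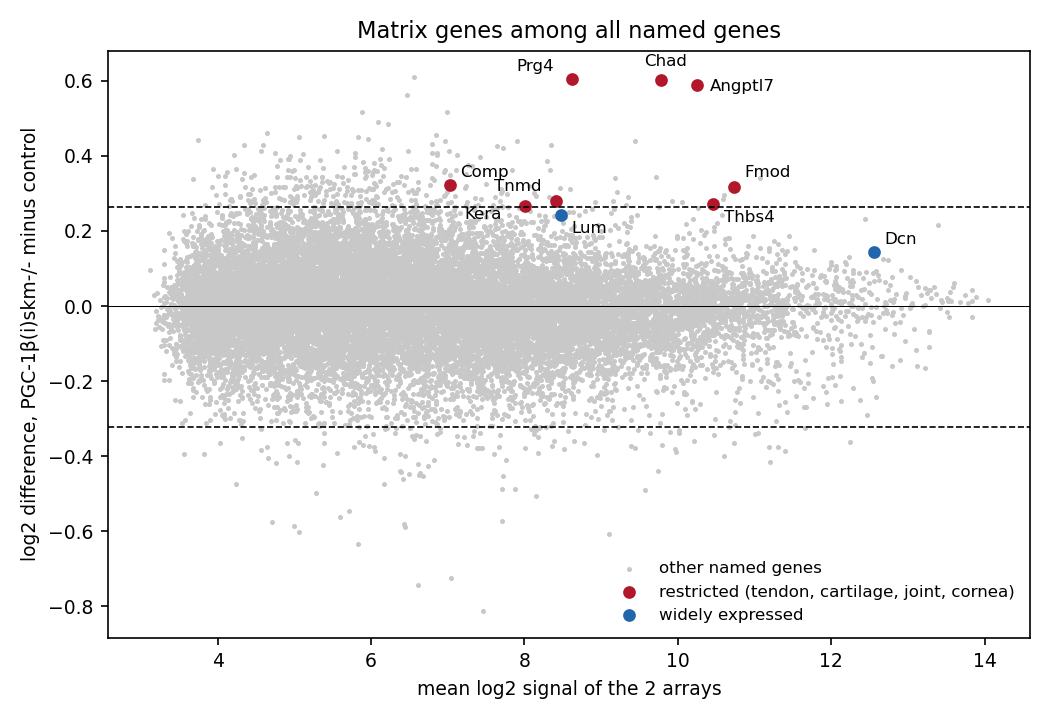
Log2 difference between the PGC-1β(i)skm-/- and the control array (vertical axis) against the mean of both log2 signals (horizontal axis) for 19936 named genes, 1 point per gene, with 8 genes of tendon, cartilage, joint or cornea in red, Lum and Dcn in blue and dashed lines at ratios of 1.2 and 0.8. Prg4, Chad and Angptl7 are the highest points in the quartile of highest mean signal, at log2 differences of 0.60, 0.60 and 0.59.

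To rank genes of restricted expression against widely expressed matrix genes, the 8 genes other than Lum and Dcn, known from tendon, cartilage, joint surfaces or cornea and here called restricted, were set beside these 2 and beside 28 further matrix genes that most connective tissues make, among them fibrillar collagens, fibronectin and microfibril proteins. The median log2 difference was 0.32 for the 8 restricted genes and 0.19 for Lum and Dcn. Every one of the 8, from Kera at 0.27 to Prg4 at 0.60, lay above Lum at 0.24. The difference between the medians was 0.13. Kera exceeded Lum by only 0.02, and without replicate arrays the order of such close genes has no error to be set against.

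With the 28 further genes added, the widely expressed group had a median of 0.13 and a range of 0.0033 to 0.32. All 28 had a log2 difference above 0, and 2 of them reached a ratio of 1.2. These were Mfap4, a microfibril-associated protein of elastic tissue, with a log2 signal of 8.22 on the PGC-1β(i)skm-/- array and 7.90 on the control array, and Mfap5, a component of fibrillin microfibrils, with 9.06 on the PGC-1β(i)skm-/- array and 8.78 on the control array. Sparc, a collagen-binding glycoprotein, followed with 12.56 on the PGC-1β(i)skm-/- array and 12.33 on the control array. In the common order of 38 genes, Prg4, Chad, Angptl7 and Comp came first. Mfap4 stood between Comp and Fmod and Mfap5 between Tnmd and Thbs4. Of 240 pairs of a restricted and a widely expressed gene, the restricted gene had the larger difference in 234. The 8 restricted genes were chosen by their differences on these arrays, which largely fixes this order, so that the count is a description only. The count also depends on which genes were placed in the widely expressed group. Thbs1, which many cell types secrete, was not placed there, and its log2 difference of 0.39 lay above that of Comp. Ogn, also outside both groups, had a log2 difference of 0.28, above that of Thbs4. Dcn lay within the widely expressed genes, above 17 of the 30, and Lum near their top, above 27.

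**Figure D3:**
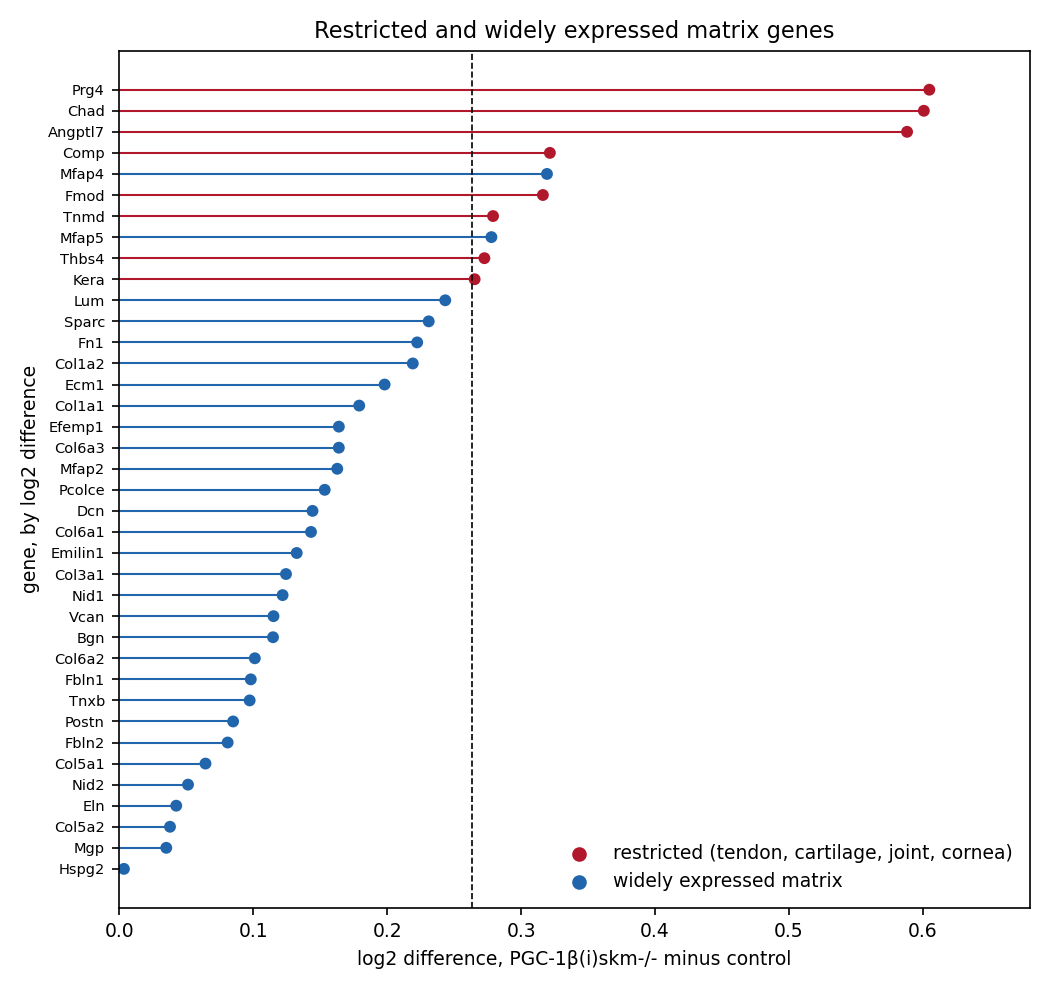
Difference in log2 signal, mutant minus control (horizontal axis), of the 8 restricted genes (red) and 30 widely expressed matrix genes (blue), 1 gene per row in order of difference, with a dashed line at a ratio of 1.2. All genes lie to the right of 0, and only Mfap4 and Mfap5 among the blue points pass the dashed line.

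The small leucine-rich proteoglycan family, to which Chad, Fmod, Kera, Lum and Dcn belong, was measured with 16 of 17 genes. Of the 11 family genes outside the set, 8 were above 0, with a median of 0.12, and 2 had a ratio of 1.2 or more. These were Ogn, encoding osteoglycin of bone, vessel wall and fascia, with a log2 signal of 10.19 on the PGC-1β(i)skm-/- array and 9.92 on the control array, and Omd, encoding osteomodulin of bone and tooth matrix, with a dim 5.80 on the PGC-1β(i)skm-/- array and 5.46 on the control array. Prelp, encoding a heparin-binding protein of basement membranes and cartilage, had a log2 difference of 0.23, Aspn, encoding asporin, of 0.18, and Bgn, the closest relative of decorin, of 0.11. Epyc, a proteoglycan of growth plate cartilage, was at −0.10 with a mean log2 signal of 4.36, Optc, encoding opticin of the eye, at −0.02, and Podn at −0.00065.

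Most genes of this family lie beside each other in the mouse genome (order of RefSeq genes, GRCm38.p6), with no other protein-coding gene within the runs. Dcn, Lum, Kera and Epyc form such a run on chromosome 10, and their log2 differences were 0.14, 0.24, 0.27 and −0.10. Optc, Prelp and Fmod are neighbours on chromosome 1, with −0.02, 0.23 and 0.32. Ecm2, Aspn, Omd and Ogn are neighbours on chromosome 13, with 0.11, 0.18, 0.34 and 0.28. Epyc and Optc, the lowest of their runs, had dim mean log2 signals of 4.36 and 5.46. Without replicate arrays, whether genes of a run share a difference cannot be told. Chad, with the largest difference of the family, has no family neighbour and lies inside the span of Acsf2, whose log2 signal was 6.42 on the PGC-1β(i)skm-/- array and 6.40 on the control array. Angptl7 lies inside the span of Mtor, with log2 signals of 8.48 on the PGC-1β(i)skm-/- array and 8.54 on the control array, so that neither enclosing gene had a difference like that of the gene it encloses. Prg4 partly overlaps Tpr, and Comp partly overlaps Gm51533, a long non-coding RNA gene. Neither Tpr nor Gm51533 had a value among the named genes, so these overlaps could not be examined. Acsf2, Mtor, Tpr and Gm51533 are named for their position alone.

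**Figure D4:**
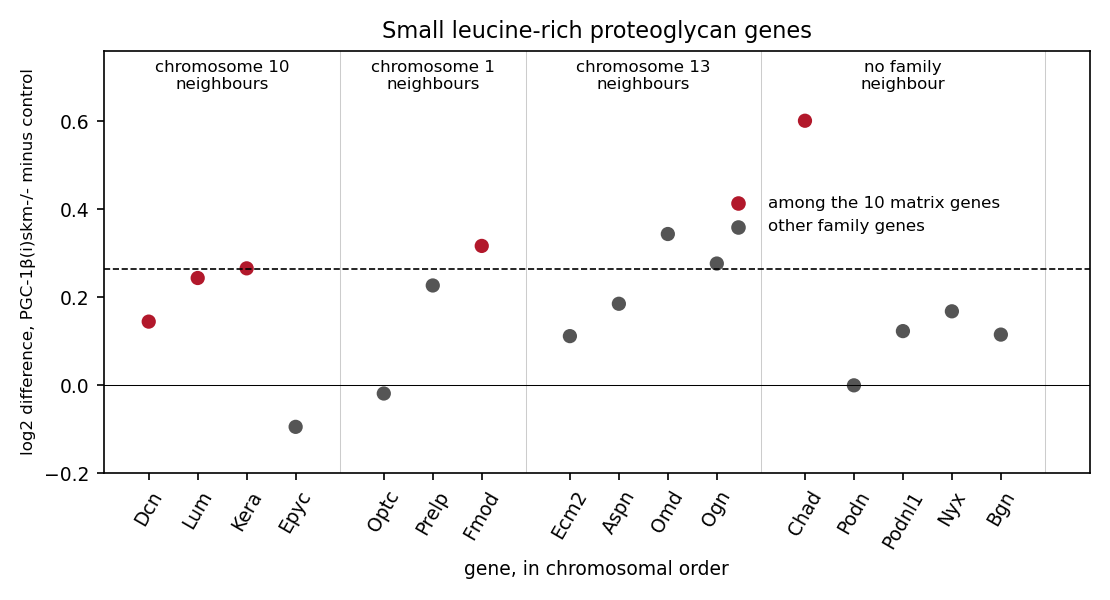
Log2 difference, mutant minus control, on the vertical axis, of 16 small leucine-rich proteoglycan genes in chromosomal order within each run of neighbours (horizontal axis), with the 5 genes of the set in red, other family genes in grey and a dashed line at a ratio of 1.2. Differences within a run range from −0.10 to 0.27 on chromosome 10 and from 0.11 to 0.34 on chromosome 13, and Chad stands apart at 0.60.

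All 5 thrombospondin genes were above 0. Besides Comp and Thbs4, Thbs1, an activator of latent transforming growth factor-β that many cell types secrete, had a log2 signal of 8.48 in PGC-1β(i)skm-/- muscle and 8.10 in control muscle, a ratio of 1.31 and the largest of the family. Thbs2 had a log2 difference of 0.22 and Thbs3 of 0.04. Of the angiopoietin-like genes, 5 of 7 were measured. Of the 4 besides Angptl7, 2 were above 0. Angptl6 had log2 signals of 7.06 in PGC-1β(i)skm-/- muscle and 6.66 in control muscle, the only family gene besides Angptl7 with a ratio of 1.2 or more, and Angptl1 had a log2 difference of 0.16, Angptl8 of −0.09 and Angptl4 of −0.10, these last chosen after their values were seen.

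Other genes of tendon cells had smaller differences than the 8 restricted genes, which were chosen by their differences on these arrays. That choice largely fixes the contrast, which is a description only. Of 15, 13 were above 0, with a median of 0.10, and none had a ratio of 1.2 or more. The list is mixed, since not all of its genes, Igf1, Egr1 and Fbln5 among them, are restricted to tendon. Scx, encoding scleraxis, the transcription factor of tendon progenitors, had a log2 signal of 7.42 on the PGC-1β(i)skm-/- array and 7.25 on the control array. Cilp2, a cartilage intermediate layer protein, had 7.91 on the PGC-1β(i)skm-/- array and 7.72 on the control array, and Fbln5, an elastic fibre protein, had 8.37 on the PGC-1β(i)skm-/- array and 8.20 on the control array. Mkx, encoding the tendon factor mohawk, was at 0.04, and Col22a1, a collagen of the muscle-tendon junction, at 0.01, both chosen after their values were seen.

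Cartilage genes outside the set were spread around 0, without a common direction. Many of them were dim, their mean log2 signals having a median of 5.96, and detection above background was not measured. Of 19, 10 were above 0, with a median of 0.01 that turned to −0.01 and −0.03 once genes below mean log2 signals of 6 and 7 were left out, and none passed a ratio of 1.2 or of 0.8. Clec3a, a cartilage lectin, had a log2 signal of 6.11 on the PGC-1β(i)skm-/- array and 5.92 on the control array, and Sox9, the master transcription factor of chondrocytes, 6.90 on the PGC-1β(i)skm-/- array and 6.73 on the control array. Cnmd, encoding chondromodulin, the closest relative of tenomodulin, had 5.63 on the PGC-1β(i)skm-/- array and 5.50 on the control array. Hapln1, a link protein of aggrecan, was at −0.12 with a mean log2 signal of 4.09. Col2a1 and Acan, the main collagen and proteoglycan of hyaline cartilage, had log2 differences of 0.01 and 0.08, Acan at a mean log2 signal of 4.69. Hapln1, Col2a1 and Acan were chosen after their values were seen. Genes of the synovial lining and tendon sheath, 8 in number, were all above 0 with a median of 0.05 and no ratio of 1.2 or more. Pdpn, encoding podoplanin of lining fibroblasts, was highest among them at 0.19, followed by Has1 at 0.15 and Has2 at 0.14, both hyaluronan synthases.

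In the transforming growth factor-β and bone morphogenetic protein pathway, which induces matrix genes in tendon, 14 of 22 genes were above 0, with a median of 0.05. Only Ltbp2, a matrix protein related to the latent transforming growth factor-β binding proteins, had a ratio of 1.2 or more, with a log2 signal of 6.53 in PGC-1β(i)skm-/- muscle and 6.20 in control muscle. Bmp4 had a log2 difference of 0.23 and Smad7, an inhibitor of the pathway, of 0.19. Another 8 genes were below 0, the lowest being Smad3 at −0.13 and Tgfb1 at −0.11, both named after their values were seen. None of the genes had a ratio of 0.8 or less.

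Of the other cell types, fibroblasts, macrophages and mast cells had list medians above 0.1 on the log2 scale. All 9 measured fibroblast markers were above 0, with a median of 0.14, and their summed linear signal was 6877 on the PGC-1β(i)skm-/- array and 6219 on the control array. Clec3b, encoding tetranectin, had a log2 difference of 0.21, Pi16, a marker of universal fibroblasts, of 0.21, and Dpt, encoding dermatopontin, of 0.18. All 10 macrophage markers were above 0, with a median of 0.26 and 5 at a ratio of 1.2 or more, and their summed signal was 1923 on the PGC-1β(i)skm-/- array and 1612 on the control array. C1qa was at 0.37, C1qb at 0.36 and Mrc1 at 0.31. Of 6 mast cell markers, 4 were above 0, with a median of 0.16 (0.43 for the 2 with a mean log2 signal of 6 or more) and a summed signal of 388 on the PGC-1β(i)skm-/- array and 318 on the control array, and Cpa3, a mast cell protease, had a log2 difference of 0.61. The lowest mean log2 signal was 6.24 among fibroblast, 5.71 among macrophage and 4.21 among mast cell markers, and an RMA signal is not 0 for a gene that is absent. The part of these cell types, and of tendon cells, whose other genes are given above, in the differences of the 10 matrix genes was not tested.

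**Figure D5:**
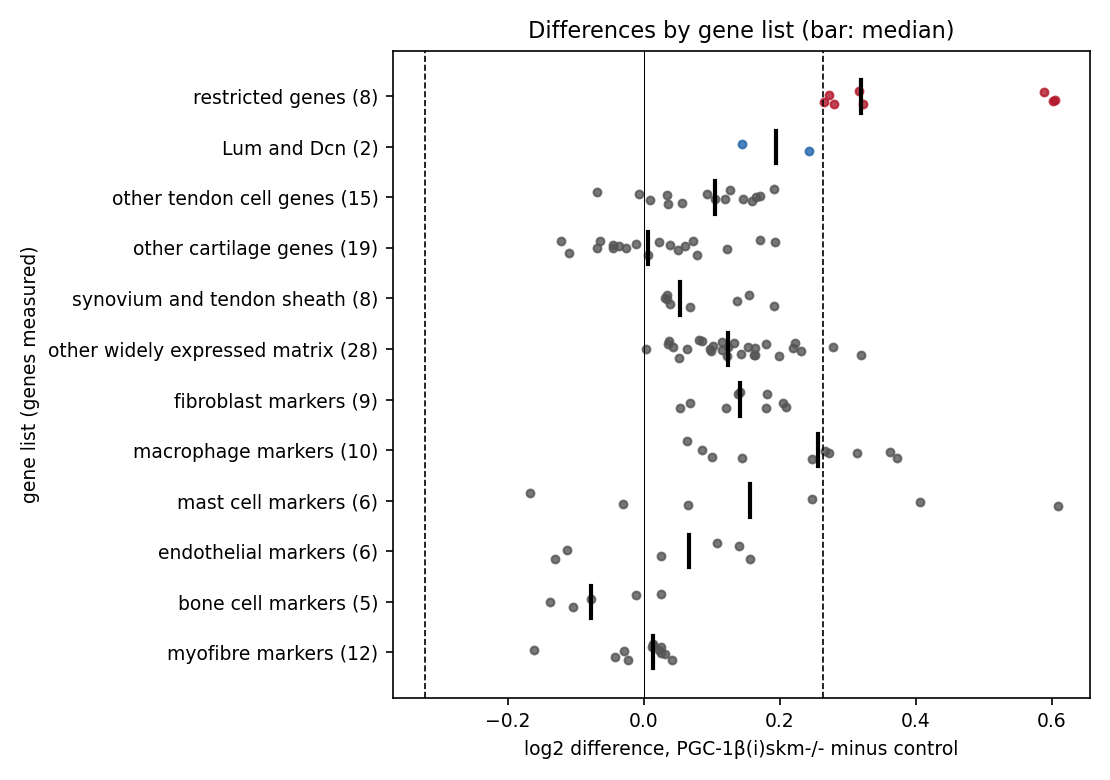
Difference in log2 signal, mutant minus control (horizontal axis), of single genes (points, spread vertically for legibility) in 12 lists (vertical axis, with the number of genes measured), with black bars at list medians and dashed lines at ratios of 0.8 and 1.2. Medians are 0.32 for restricted genes, 0.10 for other tendon cell genes, 0.01 for other cartilage genes, 0.12 for other widely expressed matrix genes, 0.26 for macrophage markers and 0.01 for myofibre markers.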

How the data were processed

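From scans of Affymetrix Mouse Gene 1.0 ST arrays, the authors computed log2 signals per probe set by RMA (background correction, quantile normalization and median polish), which the submitters' processing notes also name. RNA was isolated with a column kit, per the labels, whereas the methods of the study name TRIzol reagent. No genome build of the probe sets was given in the sources used here. Quantile normalization hides a change common to all genes, and detection above background was not measured. Probe sets were named through the platform annotation, and symbols were updated through Entrez ID with RefSeq (GRCm38.p6) for 21698 of 21789 probe sets with 1 symbol; 1621 with several symbols were left out and 12146 stay unnamed. Where several probe sets shared a gene, that of highest mean signal was kept. The members and the 21 gene lists were chosen with earlier results of these data known. Named genes are the 10 members, members of their proteoglycan and thrombospondin families, Ppargc1b, and up to 3 genes of largest difference per other list, with exceptions stated. No test was possible. Alternatives were averaged probe sets, inclusion of ambiguous probe sets, minimum mean log2 signals of 6 and 7, median centring, loess subtraction (span 0.3), other thresholds and other groupings. The calculation was tested on simulated data. Python 3.11.15, pandas 2.3.3, numpy 2.4.6, statsmodels 0.14.6 and matplotlib 3.10.9 were used.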

Additional observations from a re-analysis of the deposited data

How the results depend on the processing

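The median log2 difference of the 10 genes was 0.30 to 0.31 under every alternative run. In each of them 8 genes had a ratio of 1.2 or more, except that 9 did after loess subtraction, Lum being added. Each of the 10 genes had 1 probe set and a mean log2 signal of at least 7.03. The probe set alternatives and the filters at 6 and 7 therefore could not change these values. The median subtracted in centring was only −0.00055. With a threshold of 1.5, 3 genes remained past it, and without Chad, Prg4 and Angptl7, a choice made after seeing the data, 5 of 7. The median of the restricted genes minus that of the widely expressed ones was 0.13. With Fmod and Thbs4 counted as widely expressed it became 0.20. It was 0.19 with the 28 further matrix genes added and 0.21 with means in place of medians. The probe set alternatives, the filters and median centring could not change it. It was above 0 in each alternative run for it, which the choice of members by these differences largely fixes. The number of all genes with a ratio of 1.2 or more, 327, was 155 and 67 at a mean log2 signal of at least 6 and 7, where fewer genes enter, and 914 with a constant background of 4 on the log2 scale subtracted, which was added after seeing the data. The median of cartilage genes turned to −0.01 and −0.03 with the filters at 6 and 7. Where the filter at 6 left 2 mast cell markers and 1 skin marker, the list medians were 0.43 and 0.31, and where that at 7 left 2 angiopoietin-like genes and 1 Schwann cell marker, 0.38 and −0.34. No paired analysis was possible because each genotype had 1 array. No replicate could be left out. Pooling of mice and 1 array per genotype leave the spread between animals unknown.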

Other observations

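Markers of further cell types had no direction common to all of these types. Of 6 endothelial markers, 4 were above 0, with a median log2 difference of 0.07, and Cdh5, encoding the endothelial cadherin, was at 0.16 and Emcn, encoding endomucin, at −0.13. Of 6 adipocyte markers measured, 4 were above 0, with a median of 0.07, and Retn, encoding resistin, was at 0.23 and Lep, encoding leptin, at 0.21. Of 5 bone cell markers measured, 1 was above 0, with a median of −0.08, and Sp7, the osteoblast transcription factor, was at −0.14 with a mean log2 signal of 5.41. All 3 Schwann cell markers measured were below 0, and Mbp, encoding myelin basic protein, had log2 signals of 7.26 in PGC-1β(i)skm-/- muscle and 7.60 in control muscle, a ratio of 0.791. All 4 skin markers were above 0, with Krt10 at 0.31 and the others at 0.07 or less, and Alas2, the only red blood cell marker measured, was at −0.04.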
